A study of Mus musculus with 6 samples.

Results

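MicroRNAs encoded inside longer host transcripts, 6 in number, were followed across the small RNA libraries of pigmented mouse melanocytes with and without overexpression of MITF: miR-140, miR-28a, miR-421, miR-744, miR-532 and miR-324. They were chosen by their measured levels in these same libraries, at least 1 arm of each being lower with MITF overexpression than in controls. Their differences between the groups are therefore given as a description. Their rows stood in the test of all rows, and a pass there is not read as support. Every row with a mouse name that matched one of the 6 names, whatever its arm or end, was taken, which gave 11 rows of the 1560 in the deposited table and of the 506 with a mouse name. Both arms had a row for 5 of the 6 microRNAs, and miR-421 had a row for its 3p arm.

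The cells were melan-alpha, an immortalised mouse melanocyte line, in RPMI medium with fetal bovine serum. For 3 libraries, labelled Mitf_OE, a lentivirus had brought the mouse Mitf gene into the cells, and the other 3 carried the genotype label Mitf_control. The labels say neither which promoter drove the transgene nor whether controls received an empty virus. All libraries derive from this 1 line, and nothing in the labels tells whether replicates were separate cultures, so their spread may be technical. The samples are labelled as extracellular vesicle, although the extraction protocol speaks of collected and washed cells, and the values are therefore those of libraries with a vesicle label.

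A microRNA gene is transcribed into a hairpin precursor, from which a duplex of a 5p and a 3p arm is cut. One arm is usually kept in the silencing complex and the other is degraded, so both arms of a precursor come from the same transcript and can still reach very different levels. The seed, bases 2 to 8 of the mature strand, pairs with target messages. A microRNA inside an intron is often made together with its host message, although many also have start sites of their own. MITF, the master transcription factor of pigment cells, is known to bind the letters CACGTG and the M-box TCATGTG.

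The 11 sequences that were counted are given first, because the arms of 1 precursor are compared throughout. Capitals mark the seed, and the letters are those of the deposited rows, read 5′ to 3′.
miR-140-5p: cAGTGGTTttaccctatggtag
miR-140-3p: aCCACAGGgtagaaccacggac
miR-28a-5p: aAGGAGCTcacagtctattga
miR-28a-3p: cACTAGATtgtgagctgctgga
miR-421-3p: aTCAACAGacattaattgggcgc
miR-744-5p: tGCGGGGCtagggctaacagc
miR-744-3p: cTGTTGCCactaacctcaacct
miR-532-5p: cATGCCTTgagtgtaggaccgt
miR-532-3p: cCTCCCACacccaaggcttgc
miR-324-5p: cGCATCCCctagggcattggtgt
miR-324-3p: aCTGCCCCaggtgctgctggt
No 2 of these rows had the same seed. MiR-532-5p, miR-140-5p and miR-421-3p had no RefSeq mature sequence (GRCm38.p6) at hand and were not compared. In 2 of the other rows the first base differed from that of the RefSeq mature sequence, so the counted seed was not the annotated one. The miR-140-3p row started 1 base later, and its annotated form is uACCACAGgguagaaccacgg. The miR-324-3p row started 2 bases later than the annotated cCACUGCCccaggugcugcu. The last base of the miR-324-3p row, t, is a g in the RefSeq hairpin, so this row did not match the hairpin to its end. The miR-744-5p, miR-532-3p and miR-28a-5p rows ended 1 base earlier than the annotated form and kept its seed. Of mouse-named rows outside the 6 microRNAs, none that was tested had the seed of a tested row. MiR-708-5p, which has the seed of miR-28a-5p, was found with 9 reads in MITF overexpression replicate 1 alone.

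The RefSeq hairpins (GRCm38.p6) of miR-140 and miR-532, the 2 precursors whose ratio of arms did not overlap between the groups, are shown with both counted rows in capitals. The remaining bases are the loop and the flanks.
Mir140: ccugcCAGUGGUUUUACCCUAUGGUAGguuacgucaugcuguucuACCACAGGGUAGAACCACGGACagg
Mir532: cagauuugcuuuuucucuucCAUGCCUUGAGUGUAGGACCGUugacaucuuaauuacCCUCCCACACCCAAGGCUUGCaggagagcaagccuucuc

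In GENCODE M21, on GRCm38, all 6 precursors lay within another gene. Mir140 lies at chr8:107551244-107551313 on the plus strand, in an intron of all 3 protein-coding transcripts of Wwp2 that span it and in an exon of a retained-intron transcript. Wwp2 encodes a ubiquitin ligase. Mir28a lies at chr16:24827855-24827940 on the plus strand in an intron of Lpp, which encodes a protein of cell adhesion sites. Mir744 lies at chr11:65734733-65734832 on the minus strand in an intron of Map2k4, a kinase of the JNK and p38 pathways. Mir532 lies at chrX:7248402-7248497 on the minus strand in an intron of Clcn5, which encodes a chloride transporter of endosomes. Mir421 lies at chrX:103572921-103572996 on the minus strand in an intron of Ftx, a long noncoding RNA of the X-inactivation centre, so this host makes no protein. Mir324 lies at chr11:70012043-70012131 on the plus strand, in an exon of the 1 protein-coding transcript of Dvl2 that spans it. Dvl2 encodes a mediator of Wnt signals. Mir324 also lies opposite an intron of Acadvl on the minus strand. Small RNA libraries measure neither host messages nor the Mitf message, so no host level and no check of the overexpression stands beside the values that follow.

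Levels are CPM, estimated reads brought to 1 common library total after TMM scaling, a scaling that assumes most rows do not differ. The libraries held 279142 to 475977 tabulated reads, which were 4.49% to 4.69% of the reads called valid in controls and 4.90% to 5.63% with MITF overexpression. Pearson's r of log2 CPM over the 441 tested rows was 0.928 to 0.965 within controls, 0.924 to 0.944 within MITF overexpression and 0.862 to 0.920 between the groups, and no pair of libraries agreed within sampling noise. MiR-211-5p, the melanocyte microRNA encoded in Trpm1, was found in every library at 1879.5 CPM or more. Markers of some other sources differed between the groups. Of a list of blood and serum microRNAs 5 of 8 tested rows were higher with MITF overexpression past the test, and its summed level, most of it the liver and serum microRNA miR-122, was 27533 to 111740 CPM against 11410 to 18819 CPM in controls. Of a fibroblast list 3 of 7 tested rows were higher, with a summed level of 7089 to 10022 CPM against 5712 to 6526 CPM, and of a melanocyte list 3 of 3, with 4565 to 5946 CPM against 1976 to 2771 CPM. Of a keratinocyte and an endothelial list 0 of 2 rows each passed, with summed levels of 58.5 to 315 CPM against 51.9 to 141 CPM and 1825 to 9080 CPM against 2233 to 2409 CPM. The endothelial miR-126a-3p stood at 7770.5 CPM in MITF overexpression replicate 1 and at 1540 and 2084 CPM in replicates 2 and 3. MiR-486a and miR-141 had no row, miR-429 was at 0 in controls, and the part of these sources in the values below was not tested. In such bulk libraries fewer vesicles or cells of a type and less RNA in each cannot be told apart.

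With the threshold on edgeR's quasi-likelihood test set at 0.05 after adjustment, 67 of 441 tested rows passed (15.2%), 23 of them lower (5.22%) and 44 higher (9.98%) with MITF overexpression. With total-count scaling there were 15 lower and 62 higher, with the most abundant row left out 37 and 44, and with scaling to valid reads 5 and 69. Of the 6 microRNAs, 10 of 11 rows were abundant enough to be tested, 5 were among the lower rows and none among the higher, and nothing is read from these counts because the rows were chosen in this contrast. Those 5 rows were miR-140-5p, miR-28a-3p, miR-421-3p, miR-744-5p and miR-532-5p. Their number was 0 without control replicate 2, without control replicate 3 or without MITF overexpression replicate 3, 1 without MITF overexpression replicate 2, 2 without control replicate 1 and 4 without MITF overexpression replicate 1. It was 3 with total-count scaling or DESeq2 and 1 with scaling to valid reads. Groups did not overlap in 6 of the 10 rows with lower and in 1 with higher levels under MITF overexpression, where 17.2% and 25.2% of all tested rows did not overlap in these directions and 42.4% in either.

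**Figure D1:**
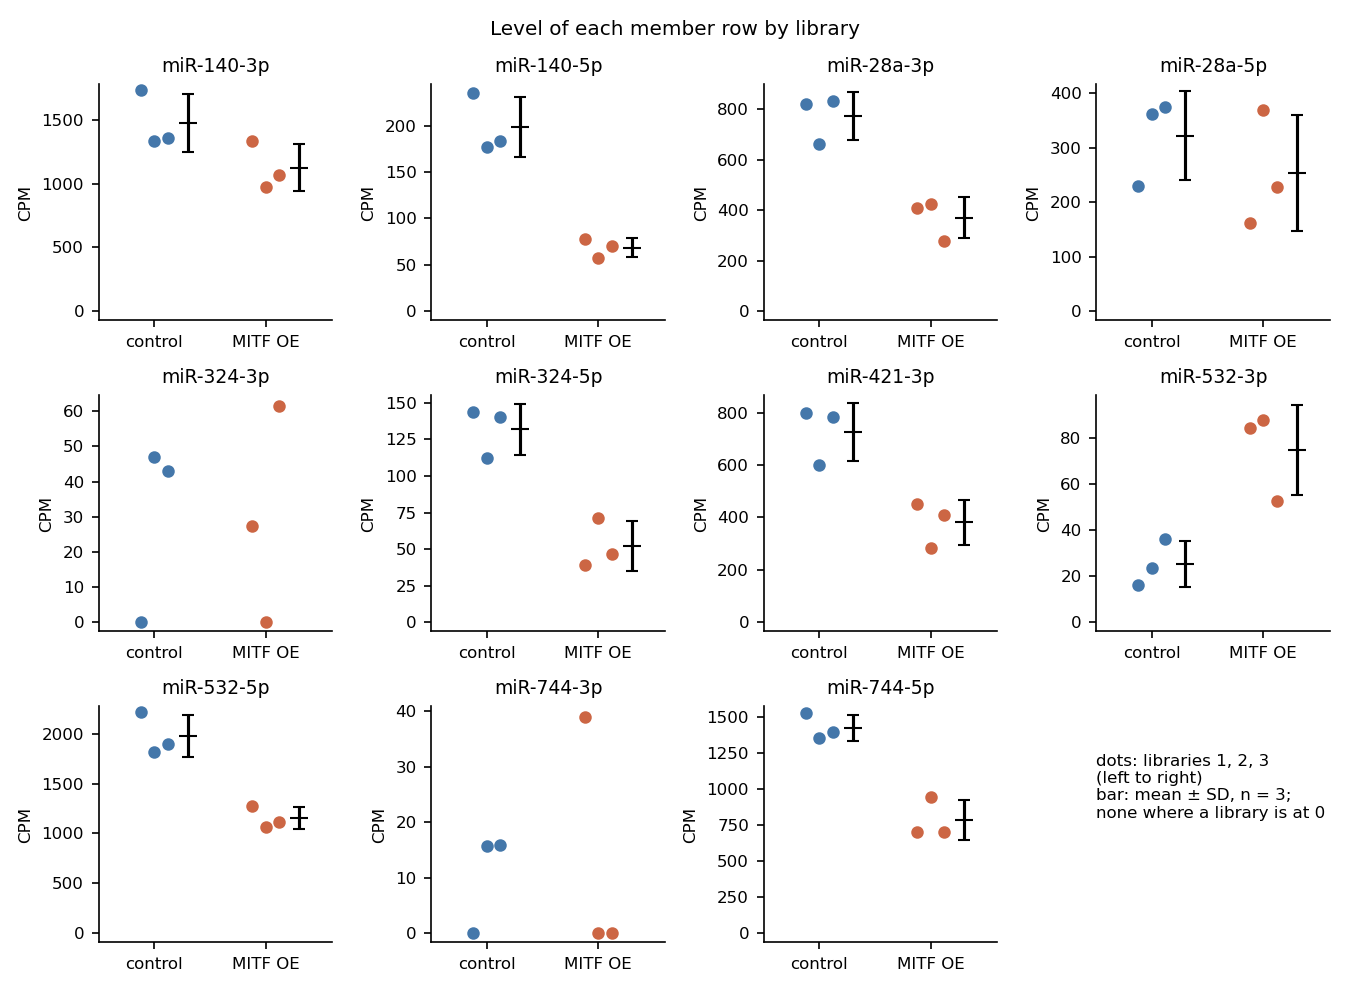
Level of each of the 11 rows in CPM (linear axes) in the control libraries (blue) and the MITF overexpression libraries (red), with mean ± SD beside them where no library was at 0. In 6 panels every red point lies below every blue point, in the panel of miR-532-3p every red point lies above, and in the other 4 the groups overlap.

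MiR-140-5p, a microRNA best known from cartilage, showed the widest gap of the 10 tested rows among those that were lower. It had 72, 68 and 81 reads in controls 1 to 3 and 34, 17 and 24 with MITF overexpression, or 235, 177 and 183 CPM against 77.7, 57.7 and 70.2 CPM. The highest MITF overexpression library stood below the lowest control. The means were 198.5 ± 32.1 and 68.5 ± 10.1 CPM (SD, n = 3), a log2 fold change of -1.52 ± 0.35 (SE).

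MiR-140-3p, the abundant arm of the same hairpin, did not follow to the same extent. It stood at 1736, 1330 and 1355 CPM in controls and 1330, 977 and 1070 CPM with MITF overexpression. The groups touched, since MITF overexpression replicate 1 was level with control replicate 2, and the log2 fold change was -0.39 ± 0.22 (SE). Because both arms are counted in one library, their ratio does not depend on the scaling. There were 0.136, 0.133 and 0.135 reads of 5p for each read of 3p in controls and 0.0584, 0.0590 and 0.0656 with MITF overexpression. The ratio was lower in all 3 MITF overexpression libraries. Its small spread within a group is closer than 17 to 81 reads of 5p per library can resolve and is not read as precision.

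MiR-532-5p, reported to repress RUNX3 in human melanoma cells, was the most abundant of the 11 rows, at rank 76 of 441 by mean level. It stood at 2213, 1817 and 1897 CPM in controls and at 1278, 1068 and 1117 CPM with MITF overexpression. Every MITF overexpression library was below every control, with a log2 fold change of -0.77 ± 0.20 (SE).

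Its opposite arm went the other way. MiR-532-3p had 5, 9 and 16 reads in controls and 37, 26 and 18 with MITF overexpression, or 16.3, 23.5 and 36.1 CPM against 84.6, 88.2 and 52.6 CPM. The groups did not overlap, with a log2 fold change of 1.54 ± 0.63 (SE), on counts that are low in every library. For each read of 3p there were 135, 77.4 and 52.5 reads of 5p in controls and 15.1, 12.1 and 21.2 with MITF overexpression. The log2 of this ratio, with 0.5 reads added to each arm, was 6.27 ± 0.64 in controls and 3.95 ± 0.40 with MITF overexpression (SD, n = 3).

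MiR-28a-3p was the more abundant arm of miR-28a and was lower with MITF overexpression. It stood at 821, 662 and 833 CPM in controls and 409, 424 and 278 CPM with MITF overexpression, without overlap and with a log2 fold change of -1.06 ± 0.25 (SE). MiR-28a-5p, whose seed is shared by miR-708, stood at 229, 362.4 and 375 CPM against 162, 370 and 228 CPM. Its groups overlapped over most of their range, with a log2 fold change of -0.36 ± 0.36 (SE).

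MiR-421-3p, reported to repress the DNA damage kinase ATM in human cells, stood at 798, 600 and 784 CPM in controls and 450, 285 and 409 CPM with MITF overexpression. All 3 MITF overexpression libraries were below the lowest control, with a log2 fold change of -0.93 ± 0.26 (SE). MiR-744-5p, reported to repress TGFB1 in human cells, stood at 1527, 1353 and 1391 CPM against 702, 946 and 705 CPM, again without overlap, with a log2 fold change of -0.86 ± 0.22 (SE). Its opposite arm, miR-744-3p, had 0, 6 and 7 reads in controls and 17, 0 and 0 with MITF overexpression and was too low to be tested.

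MiR-324-5p, reported to repress parts of the Hedgehog pathway in human cells, had 44, 43 and 62 reads in controls and 17, 21 and 16 with MITF overexpression. At 144, 112 and 140 CPM against 38.9, 71.2 and 46.8 CPM its groups did not overlap, and its log2 fold change was -1.34 ± 0.43 (SE). It was the row with non-overlapping lower levels that was not among the 5 called. MiR-324-3p had 0, 18 and 19 reads in controls and 12, 0 and 21 with MITF overexpression, which gives no direction at this depth.

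**Figure D2:**
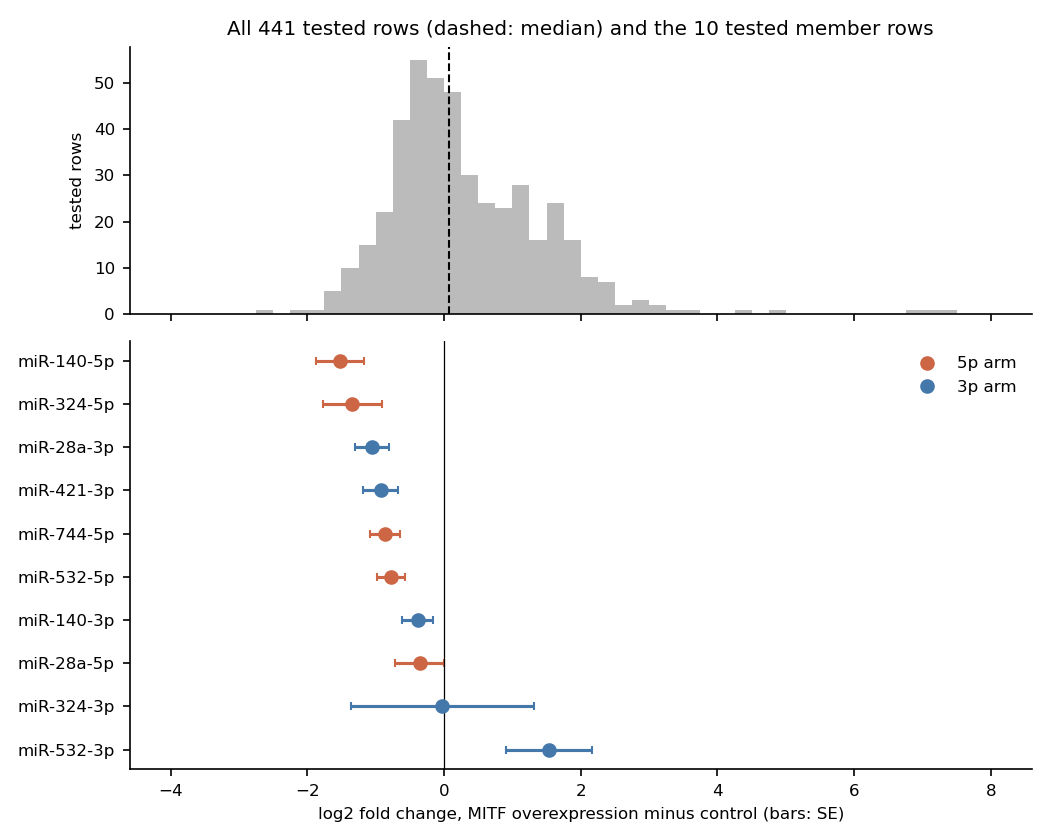
Upper panel, number of tested rows by log2 fold change (MITF overexpression minus control), with the median of 0.08 dashed. Lower panel, the 10 tested rows of the 6 microRNAs with SE bars, 5p arms red and 3p arms blue: 9 lie below 0 and miR-532-3p lies at 1.54.

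The median log2 fold change of the 10 tested rows was -0.82, against 0.08 for all tested rows. The summed level of the 11 rows was 6499 to 7719 CPM in controls and 4037 to 4600 CPM with MITF overexpression. The authors' deposited table gives a fold change of 0.353 for miR-140-5p, 0.404 for miR-324-5p, 0.487 for miR-28a-3p, 0.538 for miR-421-3p, 0.562 for miR-744-5p, 0.597 for miR-532-5p and 3.02 for miR-532-3p. Part of the size rests on the scaling. With total-count scaling the median of all tested rows moved up by 0.16, and with scaling to valid reads by 0.32. The 6 rows with lower levels kept their order, and their log2 fold changes with scaling to valid reads, where the median of all tested rows was 0.40, were -1.18 for miR-140-5p, -1.02 for miR-324-5p, -0.73 for miR-28a-3p, -0.59 for miR-421-3p, -0.54 for miR-744-5p and -0.44 for miR-532-5p. Those of miR-140-3p and miR-28a-5p were then -0.05 each.

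**Figure D3:**
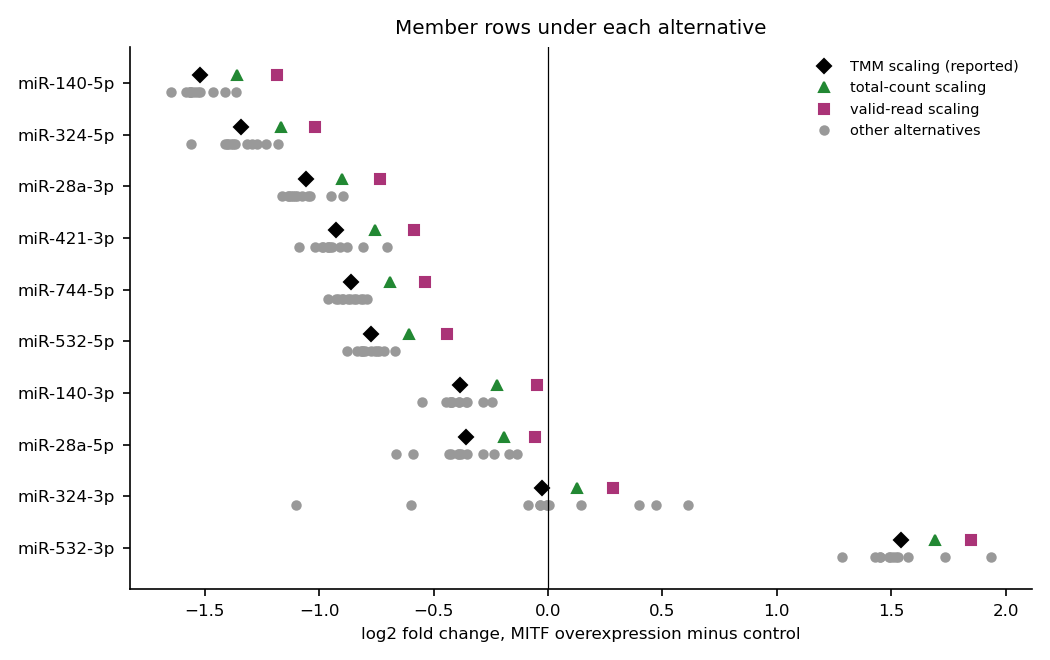
Log2 fold change of the 10 tested rows with the reported TMM scaling (diamonds), total-count scaling (triangles), scaling to valid reads (squares) and the other 12 alternatives (grey). The 6 rows at the top stay below 0 and miR-532-3p stays above 0 in all of them, while miR-324-3p lies on both sides of 0.

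Which arm has more reads within a library was not used to choose the microRNAs, and it was tested over the 6 libraries, both groups together. The libraries derive from the same line and their spread may be technical, so the p describes these libraries alone. The SD over 6 libraries takes in the difference between the groups given below. Ligation of different ends also bears on the reads of each arm, in all libraries alike. The 3p arm had more reads for miR-140, with a log2 ratio of 5p to 3p of -3.45 ± 0.62 (SD over 6 libraries), and for miR-28a, with -0.94 ± 0.63. The 5p arm had more reads for miR-532, with 5.11 ± 1.36, and for miR-744, with 7.45 ± 2.20. In each of these 4 the same arm was higher in 6 of 6 libraries, with a two-sided exact sign-flip permutation p of 0.0312, the smallest that 6 libraries allow, and 0.0391 after Benjamini-Hochberg adjustment over the 5 microRNAs tested. For miR-324 the ratio was 2.49 ± 2.79, 5p was higher in 5 of 6 libraries, and the exact permutation p was 0.0625, also after adjustment. The ratios of miR-744 and miR-324 include libraries with 0 reads of the 3p arm and depend there on the 0.5 reads added.

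Set by group, the log2 ratio of 5p to 3p was lower with MITF overexpression without overlap for miR-140, at -4.01 ± 0.09 against -2.88 ± 0.01, and for miR-532, as given above. The SD of miR-140 rests on 17 to 81 reads of 5p per library and is not read as precision. For miR-28a the log2 ratio was -0.60 ± 0.63 against -1.28 ± 0.50, and the groups overlapped, as they did for miR-744 and miR-324. These differences share the contrast by which the microRNAs were chosen and have no test. In miR-140 the minor arm showed the larger difference. In miR-28a it was the major arm that was lower, and in miR-532 the major arm was lower while the minor arm was higher.

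**Figure D4:**
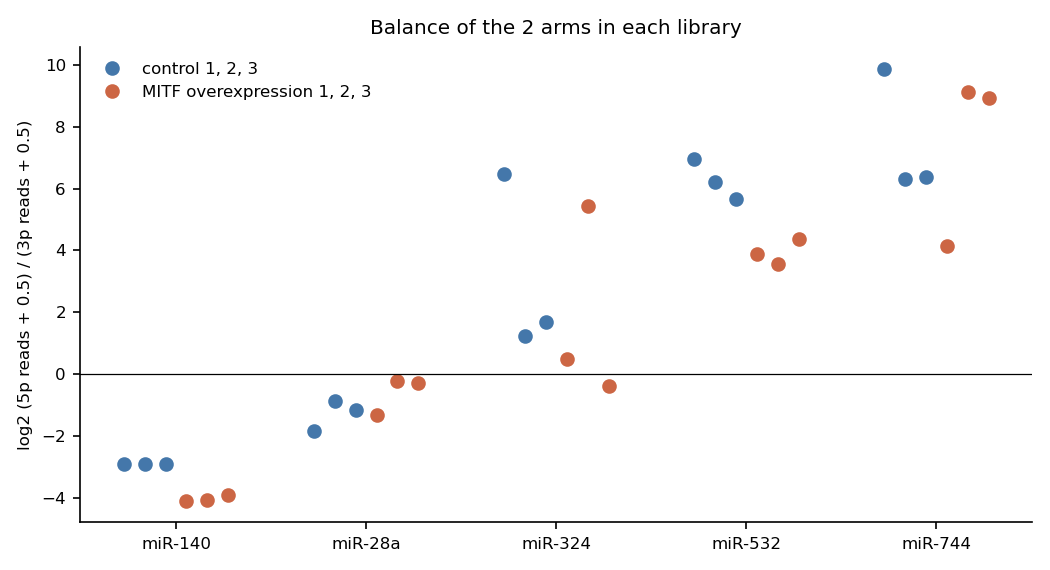
Log2 ratio of 5p to 3p reads (0.5 reads added to each) for the 5 microRNAs with both arms, 1 point per library, controls blue and MITF overexpression red. For miR-140 and miR-532 all red points lie below all blue points, and for the other 3 the groups overlap.

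MiR-532 is the first precursor of a cluster in Clcn5. Downstream of it within the host lie miR-188 at 441 bases, miR-362 at 6451, miR-501 at 7146 and miR-500 at 10723, counted between the starts of the precursors. The 4 tested mouse-named rows of these neighbours had log2 fold changes below 0, and none passed edgeR's test. MiR-362-3p stood at 268, 261 and 196 CPM in controls and 165, 136 and 132 CPM with MITF overexpression, without overlap, with a log2 fold change of -0.74 ± 0.31 (SE) and an adjusted p of 0.114 by edgeR. MiR-501-3p, the most abundant of the neighbours, stood at 1559, 1202 and 1328 CPM against 924, 1167 and 1014 CPM, also without overlap, with a log2 fold change of -0.40 ± 0.21 and an adjusted p of 0.223 by edgeR. MiR-362-5p and miR-500-3p had overlapping groups and log2 fold changes of -0.29 ± 0.37 and -0.86 ± 1.10, with an adjusted p of 0.637 for each by edgeR. MiR-500-3p had only 9, 16 and 16 reads in controls and 11, 10 and 0 with MITF overexpression, which gives no direction at this depth. MiR-188-5p had 0 to 8 reads per library and was not tested. The 3p rows of miR-362 and miR-501 thus had a log2 fold change below 0 and miR-532-3p one above 0, a difference that was not tested.

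**Figure D5:**
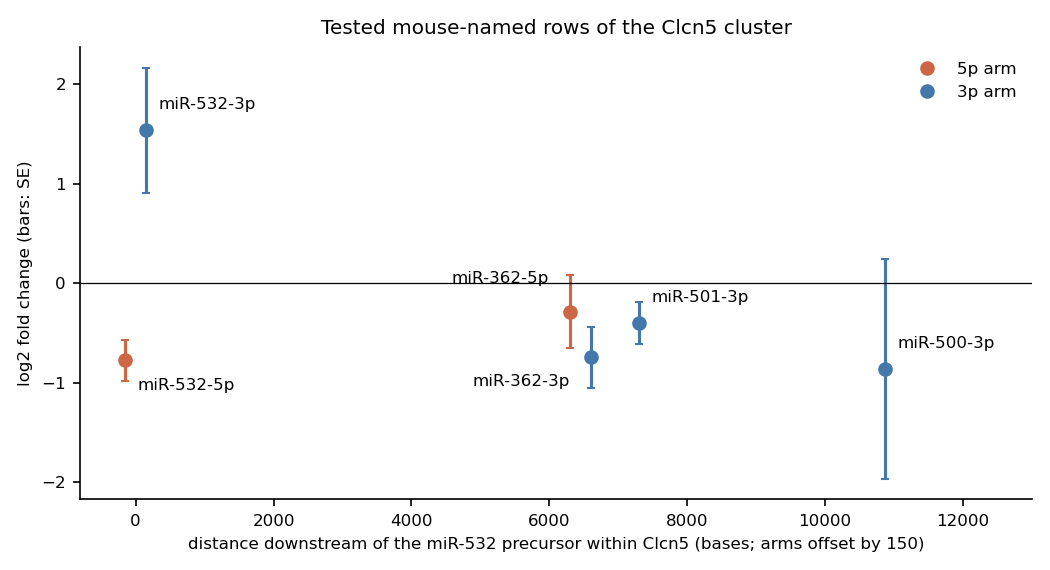
Log2 fold change with SE bars of the tested mouse-named rows of the Clcn5 cluster against their distance downstream of the miR-532 precursor in bases, 5p arms red and 3p arms blue. MiR-532-5p and the 4 rows of its neighbours lie between -0.86 and -0.29, and miR-532-3p lies at 1.54.

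Upstream of miR-421 in Ftx lie miR-374c and miR-374b, which overlap on opposite strands. From the higher coordinate of miR-421 to theirs is 137 and 158 bases, so the gaps between the precursors are smaller. MiR-374b lies on the minus strand, as do miR-421 and Ftx, and miR-374c lies on the plus strand, antisense to this host. A row named miR-374c-5p stood at 147, 201 and 163 CPM in controls and 130, 78.0 and 134 CPM with MITF overexpression. By its name it starts 2 bases before the annotated form and ends 1 base earlier, and which strand it came from was not tested. The groups did not overlap, but the log2 fold change of -0.57 ± 0.36 (SE) missed the threshold (adjusted p = 0.303 by edgeR). Over the whole list of mouse-named cluster and seed partners, 5 of 8 rows were tested and 0 passed. All 5 had a log2 fold change below 0, with a median of -0.57, as had 203 of all 441 tested rows. At an unadjusted p under 0.05 there was 1 by edgeR, 0 by DESeq2 and 1 by limma, and 0 passed the adjusted threshold by either of the other tools. MiR-660, of the Clcn5 cluster, had no mouse-named row. A cow-named row of it had a log2 fold change of 1.22 ± 0.49 (SE), but its groups overlapped and it missed the threshold (adjusted p = 0.107 by edgeR). The medium held fetal bovine serum, and whether this row came from the cells or the serum was not tested.

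Of 68 tested rows in a list of other host-gene microRNAs, which holds the Clcn5 neighbours too, 6 were lower and 5 higher past the test, where 5.22% and 9.98% of all tested rows were. These counts are near that background and are not read as a result about host-gene microRNAs. Their median log2 fold change was -0.27, compared with 0.08 for all tested rows and -0.07 for all with a mouse name. Among the lower rows were miR-21a-5p, an abundant microRNA often high in tumours, miR-93-5p (within Mcm7) and miR-152-3p (Copz2), and the log2 fold changes of all 6 ran from -1.68 to -0.87. The higher rows were both arms of miR-211 (Trpm1), miR-204-3p (Trpm3), miR-335-5p (Mest) and miR-486b-5p, with log2 fold changes from 0.93 to 2.29. The 4 most abundant rows of the list that did not pass were miR-423-5p at 0.48, miR-27b-3p at -0.73, miR-30e-5p at -0.32 and let-7f-5p at -0.17, with adjusted p of 0.174, 0.0690, 0.426 and 0.598 by edgeR. With total-count scaling 4 rows of the list were lower and 5 higher, with a median log2 fold change of -0.09, and with scaling to valid reads 2 were lower and 6 higher, with a median of 0.07. The number past the test was 0 without MITF overexpression replicate 3 and 2 without control replicate 2 or MITF overexpression replicate 2.

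The pattern over the 6 libraries was compared by Pearson's r of log2 CPM, as a description over points that share the libraries and their depth. Among the 5 called rows, r ran from 0.748 between miR-421-3p and miR-744-5p to 0.995 between miR-140-5p and miR-532-5p. These rows were picked as lower in the same 6 libraries, which by itself raises r among them, so nothing is read from these values. Outside the rows of the 6 microRNAs, which were left out of this search, the mouse-named rows most like miR-532-5p were miR-21a-5p (r = 0.990) and miR-93-5p (0.982), both also lower. In the same search miR-16-5p (0.985) and let-7g-5p (0.969) were most like miR-421-3p. MiR-1839-5p and miR-146a-5p were most like both miR-744-5p, at 0.963 and 0.959, and miR-324-5p, at 0.975 and 0.978. MiR-31-5p (0.942) and miR-34a-5p (0.924) were most like miR-28a-3p, and miR-542-3p (0.985) and miR-17-5p (0.980) most like miR-140-3p.

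The promoters of the host genes, and that of Acadvl on the strand opposite Mir324, were searched for the 2 sets of letters known for MITF. The search covered both strands of RefSeq windows of 300 bases (GRCm38.p6), 10 in all, with 2 each for Lpp, Map2k4 and Clcn5. The 2 motifs do not overlap. CACGTG was present in 2 of these 10 promoters and in 7.15% of all 32851, and TCATGTG in 1 of 10 and in 3.77% of all. The windows are shown with the motif in capitals, since these are the regulatory letters a reader would look for. They come from chr8:107436347-107436386 on the plus strand, chr11:70000452-70000491 on the plus strand and chrX:7188729-7188769 on the minus strand.
Wwp2: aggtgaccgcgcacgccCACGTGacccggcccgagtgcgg
Dvl2: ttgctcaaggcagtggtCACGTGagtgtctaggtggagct
Clcn5: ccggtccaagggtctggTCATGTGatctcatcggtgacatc
The Clcn5 window belongs to a start site downstream of Mir532 on the host strand, so a transcript from that start does not hold the precursor. A match describes letters and not binding, and binding of MITF was not measured.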

How the data were processed

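Libraries were prepared with a TruSeq kit for small RNA, per the labels' protocols, and the genome build was mm9, per the submitters' processing notes. The aligner and counter were not given in the sources used here. In the authors' deposited table each sequence has a row of estimated counts, not all of them whole, and of normalized values. These are a signal obtained by dividing a library's estimated counts by its own factor, per the file headers and the values. The columns of the deposited table beyond these are means per group, fold change, log2 fold change and p-value (unadjusted). A second deposited table gives counts of reads per read class, of which the count of valid reads was used. Of the first table, 4 empty lines were left aside.

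Estimated counts were rounded (1 of the values of the 11 rows was not whole) and fitted in edgeR 4.0.16 (R 4.3.3) after TMM scaling. Rows had to pass filterByExpr (minimum count 10). Group was the only term of the quasi-likelihood test, with Benjamini-Hochberg adjustment over the 441 rows left. The fit was tested on simulated data. The design had named whole counts or normalized values, and rounded estimated counts took their place. Alternatives used DESeq2 1.42.0, limma 3.58.1 on log2(normalized value + 1), other scalings, no filter and libraries left out. Arm ratios were computed in Python 3.11.15.

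Read numbers limit the low rows, and ligation of different ends makes levels of different sequences only roughly comparable. Precursors were placed with GENCODE M21, on another build than the authors used, and coordinates were not converted. The 6 microRNAs and all lists were chosen with earlier results of these data known. Named are every row of the 6, the tested partner rows, of the host list the 8 called rows with the smallest p and the 4 most abundant others, and the 2 rows most alike to the most abundant tested row of each microRNA. The list of host-gene microRNAs was written from general knowledge.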

Additional observations from a re-analysis of the deposited data

How the results depend on the processing

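The 6 rows described as lower kept a negative log2 fold change under all 14 alternatives, and miR-532-3p a positive one. The number of rows of the 6 microRNAs past the threshold was less stable than their direction: 5 as reported, 3 with total-count scaling, 3 with DESeq2, 1 with scaling to valid reads (chosen after seeing the data) and 0 to 4 with 1 library left out. Over all rows, the count of 67 ran from 0 to 56 with 1 library left out, and that of the host list, 11 as reported, from 0 to 12. The cause was not tested. With a replicate block, 2 rows passed in all, 0 of the 6 microRNAs and 1 of the host list. The titles share replicate numbers, but deviations of same-numbered libraries correlated at only -0.05, 0.04 and -0.01, so the numbers are not taken as pairs. No partner row passed under any of the 14. Arm balance kept its direction with 1 read added in place of 0.5 and with each library left out, where 5 libraries allow no p below 0.0625. With 1 library left out it ran from -3.56 to -3.32 for miR-140, -1.09 to -0.76 for miR-28a, 1.69 to 3.06 for miR-324, 4.74 to 5.42 for miR-532 and 6.97 to 8.12 for miR-744. Each arm had 1 row, so summing the rows of an arm or taking its most abundant row changed nothing.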

Other observations

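Rows named after the same microRNAs in other mammals lay outside the 11 rows. A cow-named miR-660 row, a microRNA of the same cluster as miR-532, had 17, 29 and 20 reads in controls and 89, 21 and 46 with MITF overexpression. Its groups overlapped, and its log2 fold change of 1.22 ± 0.49 (SE) missed the threshold (adjusted p = 0.107 by edgeR). A pair of hamster-named miR-532-5p rows, each with 2 added end bases, was found with 9 reads each in MITF overexpression replicate 2 alone.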
